A study of Mus musculus with 37 samples.

Results

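The comparison described here set 10 arrays of Wfs1 knockout (KO) temporal lobe from mice of the strain labelled 129SV against 9 KO arrays of the strain labelled C57. It took these 19 of the 37 arrays of the study and covered 45037 probe sets. The groups are called 129 KO and C57 KO. Both lacked Wfs1 by their labels, and the series design writes the backgrounds as 129S6 and C57B6. The other 18 arrays, 9 of wild-type (WT) 129 and 9 of WT C57, share no array with the KO comparison and served to show where it differed. The tissue was temporal lobe dissected under a microscope and frozen, and total RNA was measured on Affymetrix mouse arrays. The labels used here state neither age, sex nor how the Wfs1 allele was made. Nor do they state that arrays stand for separate animals. The p-values therefore measure only the spread between these samples, which may be technical.

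Wfs1 encodes wolframin, a membrane protein of the endoplasmic reticulum that takes part in calcium handling and in the response to unfolded protein. Loss of its human counterpart causes Wolfram syndrome, with diabetes, optic atrophy and psychiatric symptoms. Inbred strains such as C57 and 129 differ at many loci, so that a knockout can be read against different genomes. Genes close to a targeted locus are inherited together with it, and the strain differences were therefore also described by gene order from Wfs1.

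Signals are log2 values as deposited, a difference is 129 minus C57 on that log2 scale, and a difference of 1 is a 2-fold difference. A probe set, the group of probes that reads one stretch of a transcript, was called where its 2-sided p in limma, adjusted by Benjamini-Hochberg over all 45037 probe sets, lay under 0.05. Array medians ran from 4.3 to 4.36, and the number of arrays limits the precision. The 3' minus 5' signal of the actin controls, which grows as RNA degrades, had a median of 1.25 in 129 KO (0.909 to 1.66) and 1.22 in C57 KO (0.955 to 1.94). Array 129 KO 59 had a weight of 0.288 in an array-weighted fit, and 1076 probe sets were called without it, against 949 with it. The arrays also fell into 2 unlabelled sets, by signals of 40 probe sets after group means were removed. Set 1 held 5 arrays of 129 KO and 5 of C57 KO, and set 2 held 5 and 4. The sets followed sample number in every group, with 129 KO 50 to 54 and C57 KO 1 to 7 in set 1, and 129 KO 55 to 59 and C57 KO 8 to 17 in set 2. No label names them, and what they stand for was not tested. Within set 1 alone 577 probe sets were called between the KO strains, and 108 within set 2 alone.

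Wfs1 itself was low in both KO groups. Its signal ran from 2.64 over a median of 3.19 to 3.59 in 129 KO, and from 2.75 over 2.93 to 3.60 in C57 KO. In the WT arrays it ran from 9.11 to 9.52 in 129 and from 9.16 to 9.73 in C57. The KO arrays therefore lay apart from the WT arrays in both strains, as labelled. Between the KO strains Wfs1 differed by 0.08 ± 0.10 (SE; limma adjusted p = 0.91). Cortical markers were measured in both KO groups, with mean signals of 6.93 and 6.97 for Tbr1 and 6.74 and 6.63 for Neurod6 in 129 KO and C57 KO.

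Between the KO strains, 949 of 45037 probe sets were called (2.11%), 303 of them higher in 129 KO (0.673%) and 646 lower (1.43%). The called probe sets with 1 gene symbol stood for 621 genes. At least 2-fold differences were found in 134 probe sets (0.298%), 23 higher (0.0511%) and 111 lower (0.246%) in 129 KO. The median difference over all probe sets was 0.0075. The higher genes included Gdpd3, Xaf1, Serpina3n and Ccr6, and the lower ones Galc, Gdpd1, Mboat2 and Pnma2. The 129 KO and C57 KO arrays did not overlap in 72 of the 949 called probe sets and in 24 of the 134, against 74 of all probe sets (0.164%).

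Ccr6, the chemokine receptor for Ccl20 that guides lymphocytes and dendritic cells, was the gene given as the marker of this comparison. Its signal ran from 5.25 over a median of 5.51 to 6.03 in 129 KO, and from 3.60 over 4.20 to 5.17 in C57 KO. Every 129 KO array lay above every C57 KO array. The difference was 1.25 ± 0.14 (SE), a 2.38-fold higher signal in 129 KO (limma adjusted p = 3.8e-07). It was 1.28 within array set 1, 1.22 within set 2 and 1.20 without array 129 KO 59.

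In the WT arrays Ccr6 ran from 5.12 over 5.36 to 5.49 in 129 and from 4.45 over 5.04 to 5.68 in C57. The WT strains overlapped and differed by 0.30 (adjusted p = 0.48 in limma). The mean signals were ordered 129 KO (5.53 ± 0.20, SD, n = 10), 129 WT (5.32 ± 0.11, n = 9), C57 WT (5.03 ± 0.34, n = 9) and C57 KO (4.28 ± 0.50, n = 9). Of the neighbours in that order, C57 KO lay 0.74 below C57 WT (limma adjusted p = 0.015), and 129 KO and 129 WT differed by 0.21 (adjusted p = 1.0 in limma). The strain difference in KO exceeded that in WT by 0.96 ± 0.20 (SE), which did not pass the test (limma adjusted p = 0.10). Leaving out 1 array brought it past the threshold in 3 cases. They were C57 KO 5 with 0.0034, C57 KO 17 with 0.043 and C57 WT 40 with 0.024. With other arrays left out the adjusted p in limma was up to 0.21, and over all alternatives up to 0.996.

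Of 25 measured chemokines and chemokine receptors 1 was called (4%), which was Ccr6, against 2% of all genes read by their brightest probe set. The median difference of the list was -0.01. The ligand Ccl20 had mean signals of 3.17 in 129 KO and 3.18 in C57 KO. Within 50 annotated genes of Ccr6 on its chromosome, 2 of 58 probe sets were called between the KO strains (3.45%, against 2.11% of all). They were Prr18 (-1.07, adjusted p = 0.00015) and Qk (-1.28, adjusted p = 0.0044 in limma), an RNA-binding protein of myelin-forming cells. Over the whole chromosome that carries Ccr6, 31 of 1494 probe sets were called in KO (2.08%) and 1 in WT (0.067%). Over all probe sets the shares were 2.11% and 1.53%. Other chromosomes also leaned to one side, such as chromosome 2 with 49 KO and 8 WT calls and chromosome 8 with 13 and 38. The chromosome of Ccr6 was singled out after its values were seen, and the difference between its KO and WT shares was not tested.

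**Figure D1:**
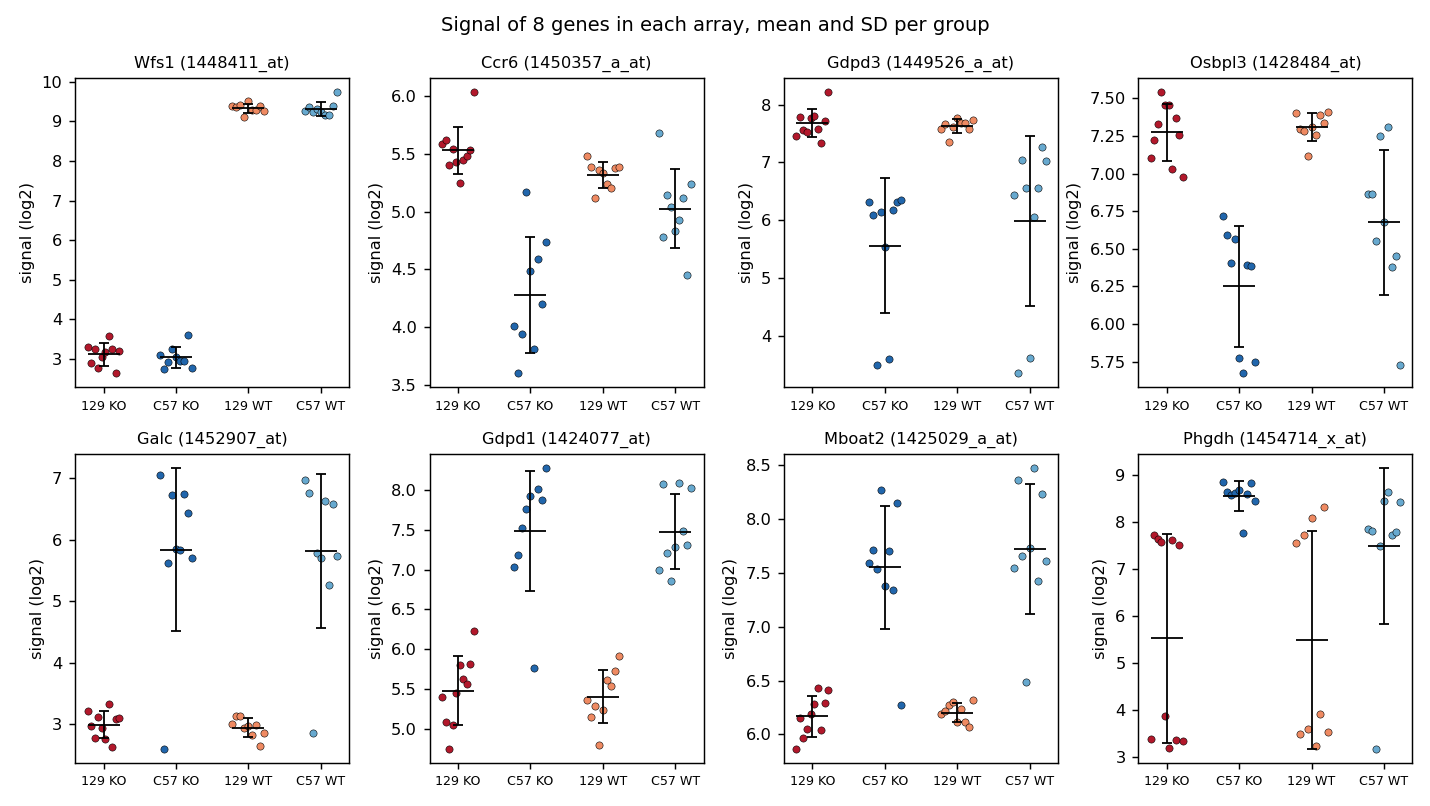
Signal (log2) of 8 genes in each array, with 1 panel per gene and a separate vertical scale in each; points are arrays, the horizontal line is the group mean and the bars are 1 SD. Wfs1 is near 3 in both KO groups, Ccr6 is at least 5.25 in the 129 KO arrays and at most 5.17 in the C57 KO arrays, and Gdpd3, Galc and Phgdh take separate levels within a group.

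Of the 12 named genes that were higher in 129 KO, Gdpd3 differed most. It encodes an enzyme that releases lysophosphatidic acid from lysophospholipids. Its signal ran from 7.34 over 7.64 to 8.21 in 129 KO, and from 3.49 over 6.15 to 6.36 in C57 KO. The groups did not overlap, and arrays C57 KO 3 and 8 lay more than 1 unit below the other C57 KO arrays. The difference was 2.12 ± 0.40 (SE; limma adjusted p = 0.0014), and it was 1.64 in WT (adjusted p = 0.026).

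Xaf1, an interferon-induced gene that promotes cell death, ran from 6.03 over 6.16 to 6.47 in 129 KO and from 2.70 over 3.17 to 6.08 in C57 KO. Of the C57 KO arrays 5 lay from 2.70 to 3.17 and 4 from 5.66 to 6.08, and 1 of 9 lay within the range of 129 KO. The difference was 1.98 ± 0.42 (SE; limma adjusted p = 0.0052). The other probe set of Xaf1, with a lower mean signal, was called the other way (-0.34, adjusted p = 0.012). Serpina3n, a secreted protease inhibitor that reactive astrocytes make, ran from 8.10 over 8.27 to 8.64 in 129 KO and from 5.20 over 7.43 to 8.49 in C57 KO. Its difference was 1.62 ± 0.39 (SE; limma adjusted p = 0.014).

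Osbpl3, a lipid-transfer protein of the oxysterol-binding family, ran from 6.98 over 7.29 to 7.54 in 129 KO and from 5.67 over 6.39 to 6.72 in C57 KO. The groups did not overlap, and the difference was 1.02 ± 0.14 (SE; limma adjusted p = 1.8e-05). Another probe set of Osbpl3 was called lower in 129 KO, at -0.62 (adjusted p = 0.0069). Fxyd2, a small subunit that modulates the sodium pump, differed by 1.01 (adjusted p = 0.0011), with 2 further probe sets called at 0.64 and 0.59. Fgfr1op2 was higher by 1.07 (adjusted p = 0.0051), again with no overlap between the KO groups, but its brightest probe set differed by -0.038 and was not called. Nfia, a transcription factor of glial development, was higher by 1.08 (adjusted p = 0.0039), but its brightest probe set differed by -0.08 and was not called.

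Cuedc1 (1.43), Zswim8 (1.43), Cap1 (1.38) and Tmem87a (1.01) completed the higher genes by this rule. Zswim8 recognises substrates for a ubiquitin ligase and Cap1 is an actin regulator. Their adjusted p-values in limma were 0.00088, 0.0024, 0.021 and 0.010. The brightest Zswim8 probe set differed by 0.0092 and the other 2 of Cuedc1 by 0.10 and 0.16, and none of these was called. Without C57 KO 2, C57 KO 5 or C57 KO 10, Cap1 was no longer called, with an adjusted p of up to 0.058.

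Phgdh, the first enzyme of serine synthesis, was among the 12 named lower genes. The probe set that was called ran from 3.19 over 5.69 to 7.72 in 129 KO and from 7.75 over 8.62 to 8.85 in C57 KO. The groups did not overlap, but the 129 KO arrays themselves fell at 2 levels, 5 from 7.51 to 7.72 and 5 from 3.19 to 3.87. The difference was -3.03 ± 0.78 (SE; limma adjusted p = 0.026), and the other 3 Phgdh probe sets differed by -0.12 to -0.17 and were not called. The call was lost without 129 KO 50, 54, 55 or 57, with an adjusted p of up to 0.058.

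Galc, the lysosomal enzyme that degrades galactosylceramide of myelin, ran from 2.63 over 3.03 to 3.34 in 129 KO and from 2.60 over 5.84 to 7.05 in C57 KO. Array C57 KO 2 was at the level of 129 KO, and the next lowest C57 KO array was at 5.62. The difference was -2.84 ± 0.39 (SE; limma adjusted p = 1.3e-05) and was -2.86 in WT. The other Galc probe set with the next highest signal differed by 0.27 and was not called.

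Gdpd1, an enzyme of the same family as Gdpd3, ran from 4.76 over 5.51 to 6.23 in 129 KO and from 5.77 over 7.75 to 8.27 in C57 KO. One C57 KO array, number 8, lay within the range of 129 KO. The difference was -2.0 ± 0.22 (SE; limma adjusted p = 3.8e-07) and was -2.07 in WT. Its brighter probe set differed by 0.00 in KO.

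Scn2b, an auxiliary subunit of voltage-gated sodium channels, ran from 4.81 over 5.34 to 6.28 in 129 KO and from 5.58 over 8.60 to 9.85 in C57 KO. Of the 9 C57 KO arrays 2 lay within the range of 129 KO. The difference was -2.63 ± 0.56 (SE; limma adjusted p = 0.0053). The brightest Scn2b probe set, with a mean signal of 10.1, differed by 0.06 and was not called.

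Mtmr7, a phosphatase of membrane phosphoinositides, ran from 2.23 over 2.39 to 2.77 in 129 KO and from 2.27 over 6.36 to 7.45 in C57 KO. Of the C57 KO arrays 4 were at the level of 129 KO and 5 were above 6. The difference was -2.50 (limma adjusted p = 0.011), whereas the brighter Mtmr7 probe set, with a mean signal of 7.82, differed by -0.15 and was not called. Pnma2, a neuronal antigen of paraneoplastic disease, ran from 4.05 over 4.23 to 4.63 in 129 KO and from 4.11 over 6.48 to 7.38 in C57 KO, a difference of -1.85 ± 0.26 (SE; limma adjusted p = 2.6e-05). The brighter Pnma2 probe set, with a mean signal of 8.23, differed by -0.016 and was not called. Rpgrip1, a protein of the photoreceptor cilium, ran from 5.28 over 5.83 to 6.29 in 129 KO and from 5.57 over 8.43 to 9.51 in C57 KO. Its difference was -1.96 ± 0.42 (SE; adjusted p = 0.0054), and a dimmer Rpgrip1 probe set was called the other way (0.35, adjusted p = 0.040). All 9 C57 WT arrays were at 8.57 or above for Rpgrip1, whereas 4 C57 KO arrays lay within the range of 129 KO.

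The probe set named Mir1931 differed by -2.19 (limma adjusted p = 0.00026), with 3 C57 KO arrays at the level of 129 KO. Its signal is not taken here as a level of the mature miRNA, and which transcript it reads was not tested. Ankrd33b (-2.66), Dzip1 (-2.35), Rps9 (-1.99) and Kbtbd11 (-1.79) were also lower in 129 KO. Their adjusted p-values in limma were 0.00015, 0.020, 0.046 and 0.0050. The brightest probe sets of Ankrd33b (-0.21), Dzip1 (0.013) and Kbtbd11 (-0.22) were not called. Dzip1 acts in cilium formation and Rps9 is a protein of the small ribosomal subunit. The brightest Rps9 probe set, with a mean signal of 10.5, differed by 0.08, and the Rps9 call was lost when any 1 of 14 arrays was left out (adjusted p up to 0.12). The dimmest Rps9 probe set, with a mean signal of 3.05, was called the other way (0.33, limma adjusted p = 0.0070). The Dzip1 call was lost without C57 KO 7 (adjusted p = 0.058). In 6 of the 12 named lower genes (Galc, Ankrd33b, Mtmr7, Dzip1, Mir1931 and Rps9) the 129 KO mean lay under 3.60, the 40th percentile of probe set means. The same held for 54 of the 111 called probe sets that were at least 2-fold lower. The values used hold no detection calls, so these 129 KO signals are not shown to be above background, and the sizes of these differences depend on where low signals were set.

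A gene's probe sets often disagreed. Of the 621 genes with a called probe set, 412 had another probe set with signal. For 54 of them (13.1%) another was called in the same direction, for 344 (83.5%) the others were not called, and for 14 (3.4%) another was called in the opposite direction. Krt12, a keratin, was among the genes with agreement, at -1.58 and -1.75 in its 2 probe sets. Ptprf, a receptor tyrosine phosphatase of axons and synapses, was called at -1.09 and -1.08 in 2 of its probe sets and differed by 0.03 in the other. Nmnat1 differed by -1.47 and -1.64. Whether probe sequence differs between the strains at these probe sets was not tested.

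The spread within C57 KO was wide where the strains differed most. Among the 134 probe sets called at least 2-fold, the C57 KO SD was above the 129 KO SD in 131 (97.8%), against 37.8% of all probe sets. The median SD of these probe sets was 0.81 in C57 KO and 0.22 in 129 KO, whereas over all probe sets it was 0.160 and 0.181. A wide spread was not limited to C57 KO. The SD in C57 WT was 1.47 for Gdpd3 and 1.25 for Galc, against 1.17 and 1.32 in C57 KO. For other genes C57 WT was narrower, with 0.22 against 1.19 for Pnma2 and 0.49 against 1.85 for Rpgrip1. Each SE and p-value in limma rests on 1 spread per probe set, shared by all 4 groups. Where C57 KO was the widest group, as for Pnma2 and Rpgrip1, the SE can therefore be too small and the p-value too low. The 134 probe sets had been chosen for a large KO difference, so these SDs are a description without a test.

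The WT arrays gave an independent set of strain-marking probe sets. A fit on the WT arrays alone called 111 probe sets with at least a 2-fold difference between 129 WT and C57 WT, and each KO array was placed by the WT mean it was nearer to. The 129 KO arrays were nearer the 129 WT mean in 108 to 111 of the 111 probe sets, with a median of 110.5. The C57 KO arrays were nearer the 129 WT mean in 28 to 47 of them, with a median of 34. The C57 WT arrays define the C57 WT mean and were not placed, so no share of theirs is at hand for comparison. A C57 WT array could also lie at the 129 WT level. For Galc the lowest was at 2.855, within the 2.65 to 3.14 of 129 WT, whereas for Pnma2 C57 WT ran from 6.06 to 6.64. No KO array had more probe sets on the side of the other strain than on its own. C57 KO 8 had 47 such probe sets, C57 KO 2 had 46, and C57 KO 7 and 9 had 28 each. What sets these levels within C57 was not tested.

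**Figure D2:**
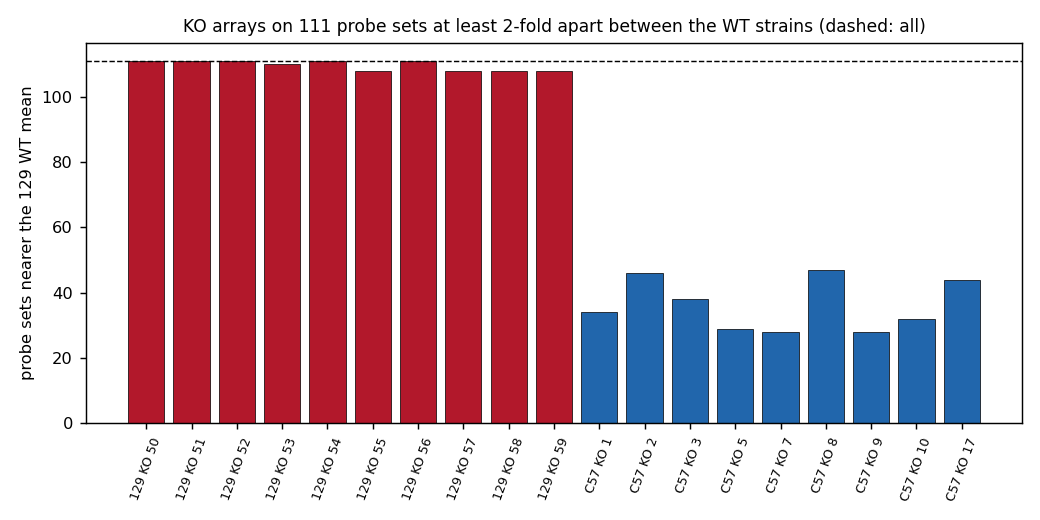
Number of probe sets, out of 111 at least 2-fold apart between the WT strains, at which each KO array lies nearer the 129 WT mean than the C57 WT mean; each bar is 1 array and the dashed line marks 111. The 129 KO arrays reach 108 to 111 and the C57 KO arrays 28 to 47.

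Most strain differences of the KO arrays had the same direction in WT. Of the 949 probe sets called in KO, 935 had the same sign in the WT comparison (98.5%), against 59.1% of all probe sets. In WT 691 probe sets were called (1.53%), 275 higher (0.611%) and 416 lower (0.924%) in 129. At least 2-fold differences were found in 120 of them (0.266%), 15 higher (0.0333%) and 105 lower (0.233%). The comparisons had 323 called probe sets in common, all in the same direction, which are 34.0% of the KO calls and 46.7% of the WT calls. The KO calls had a median size of 0.47 in KO and of 0.35 in WT, signed by their direction in KO. Since they were selected in KO, the larger value there carries no test. Of the 134 KO calls of at least 2-fold, 98 were also called in WT and 134 had the same sign.

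The strain difference itself differed between KO and WT in 11 probe sets (0.0244%), by the test of the difference of differences. None of the 949 KO calls was among them and 11 of the 691 WT calls were. Of the 11, 7 were positive (0.0155%) and 4 negative (0.00888%), and 5 reached 2-fold (0.0111%), of which 1 was negative (0.00222%). At an unadjusted p under 0.05 the same limma test gave 1538 probe sets. A call in KO without a call in WT, as for Ccr6, Serpina3n, Cap1 and Scn2b, was therefore not shown to be particular to the knockout.

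**Figure D3:**
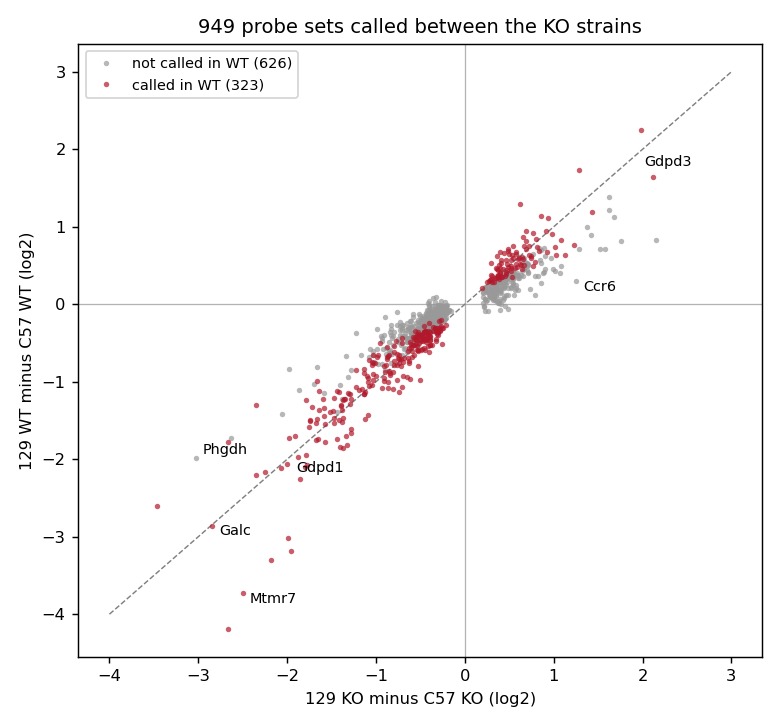
Strain difference in WT (vertical, log2) against strain difference in KO (horizontal, log2) for the 949 probe sets called in KO; red points were also called in WT (323), grey points were not, and the dashed line marks equal differences. Nearly all points lie in the quadrants of equal sign, and Ccr6 lies well below the line.

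All 11 probe sets were called in WT and none in KO. Jakmip1, which links GABA-B receptors and microtubules and lies 2 genes from Wfs1 in gene order, had the strongest test. Its signal ran from 3.89 over 4.32 to 4.70 in 129 KO and from 4.08 over 4.41 to 4.52 in C57 KO. In WT it ran from 3.78 over 4.37 to 4.60 in 129 and from 5.83 over 6.22 to 6.49 in C57. Only the C57 WT arrays stood apart, above the other 3 groups. The strain difference was -0.02 in KO and -1.92 in WT, and the difference of differences was 1.90 ± 0.14 (SE; limma adjusted p = 9.9e-12). A second Jakmip1 probe set gave 0.80 (adjusted p = 3.2e-05), but the brightest gave 0.20 and was not called.

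Abhd1 is named for the alpha/beta hydrolase family, and the RefSeq gene table used lists it as a transcribed pseudogene. It ran from 5.67 over 5.96 to 6.49 in 129 KO and from 5.61 over 5.84 to 6.17 in C57 KO. Its C57 WT arrays, from 4.14 over 4.40 to 5.37, lay below those of 129 WT, from 5.82 over 5.93 to 6.10. The strain difference was 0.08 in KO and 1.45 in WT, a difference of differences of -1.37 ± 0.15 (SE; limma adjusted p = 1.1e-06). Supt7l, a subunit of a histone acetyltransferase complex, gave -0.88 (adjusted p = 0.021). Ppp1cb, a catalytic subunit of protein phosphatase 1, gave -0.81 (adjusted p = 0.00059), and Drc1, a dynein regulator of cilia and flagella, gave -0.59 (adjusted p = 0.0028). Within the KO arrays Supt7l, Ppp1cb and Drc1 differed by 0.03, 0.01 and -0.06. The call of Supt7l was lost without 129 WT 74 (adjusted p = 0.051), and the brighter Supt7l and Ppp1cb probe sets gave 0.10 and 0.47 and were not called.

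All 6 of the 11 probe sets with a gene symbol lay within 400 annotated genes of Wfs1. In that window of 850 probe sets, 2 were called between the KO strains (0.235%) and 46 between the WT strains (5.41%). On the rest of the chromosome the counts were 31 (2.29%) and 34 (2.51%) of 1352, and on other chromosomes 671 (2.07%) and 417 (1.29%) of 32417. Among the 94 probe sets within 50 genes of Wfs1 the KO count was 0 and the WT count 3. It was 0 and 6 of 125 at over 50 to 100 genes, 0 and 9 of 230 at over 100 to 200 genes, and 2 and 28 of 401 at over 200 to 400 genes. The nearest KO calls were 1500035N22Rik, 246 genes below Wfs1, at 0.29, and Slc4a4, 395 genes above it, at -0.51. Between these lay 706 probe sets, of which 31 were called in WT.

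In this window 2 genes were named whatever their result. Lgi2, a secreted synaptic protein, differed by -0.66 between the WT strains (limma adjusted p = 0.00013) and by -0.12 between the KO strains (adjusted p = 0.80). Sod3, the extracellular superoxide dismutase, differed by -0.69 in WT (adjusted p = 1.1e-05) and by -0.14 in KO (adjusted p = 0.69). Clock, a core gene of the circadian rhythm that lies 298 genes from Wfs1 and was picked after its values were seen, differed by 0.51 in WT and by 0.13 in KO in one probe set. Outside the window, Cfap69 at 429 genes differed by -0.67 in WT and 0.03 in KO. Ypel1, on another chromosome, differed by 0.20 in WT (adjusted p = 0.028) and by -0.03 in KO (adjusted p = 0.92). The differences of differences for Lgi2, Sod3, Cfap69 and Ypel1 did not pass the test, with adjusted p from 0.28 to 1.0 in limma.

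**Figure D4:**
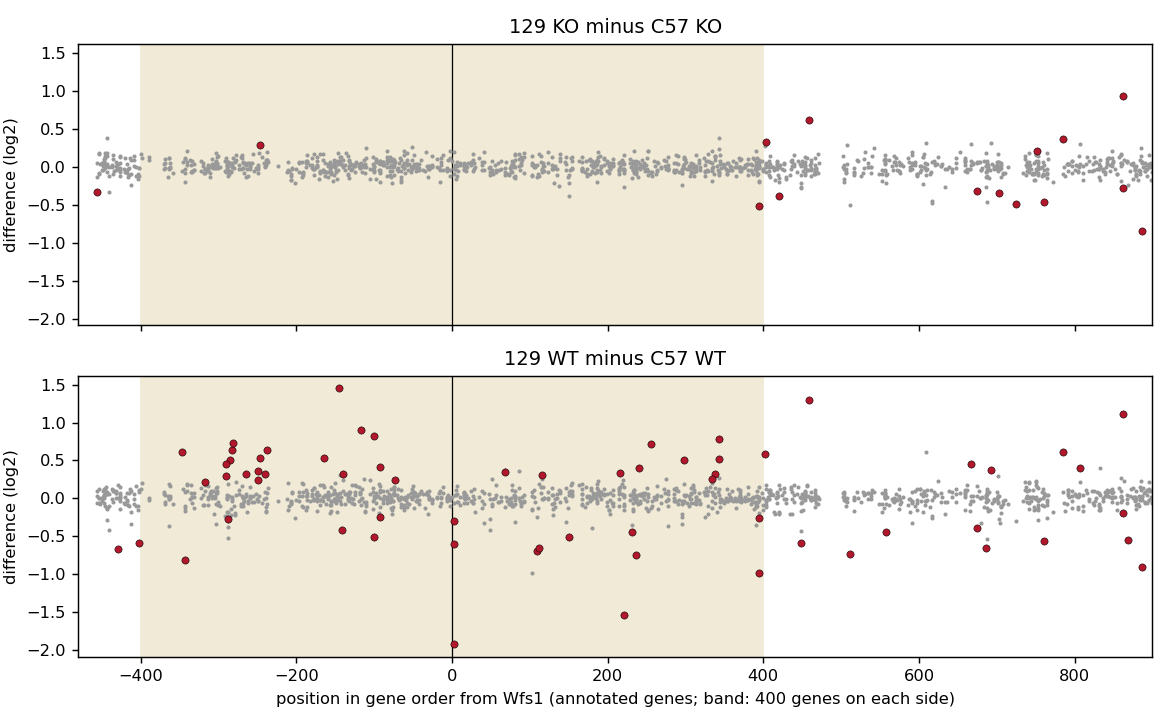
Strain difference (log2) of probe sets on the chromosome of Wfs1 against position in gene order from Wfs1, in KO (upper panel) and WT (lower panel); red points are called, grey points are not, and the band marks 400 genes on each side. In the band 2 probe sets are called in KO and 46 in WT.

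Genes of brain function and of Wfs1 biology were read in 30 lists, in which each gene stood by its brightest probe set. Of 462 distinct genes 16 were called (3.46%), 4 higher and 12 lower in 129 KO, and 17 lists held no called gene. By the same choice 364 of 18193 genes were called (2%), 104 higher (0.572%) and 260 lower (1.43%), with a median difference of -0.002.

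In the list of endoplasmic reticulum stress, to which Wfs1 is linked, 1 of 31 genes was called (3.23%, against 2% of all genes). The median was -0.01. Chac1, a target of the stress factor Atf4 that degrades glutathione, ran from 6.21 over 6.43 to 7.08 in 129 KO and from 5.99 over 6.19 to 6.54 in C57 KO. The groups overlapped, the difference was 0.29 ± 0.08 (SE; limma adjusted p = 0.041), and the call was lost when any 1 of 11 arrays was left out (adjusted p up to 0.092). Atf4 itself differed by 0.25 (adjusted p = 0.10) and the chaperone Hspa5 by -0.05 (adjusted p = 0.95). Cisd2, whose human counterpart causes the second form of Wolfram syndrome, differed by -0.32 ± 0.10 (SE; adjusted p = 0.095), and it was called only without C57 KO 8 (adjusted p = 0.042).

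In the calcium list, 1 of 21 genes was called (4.76%, against 2% of all genes). Camk4, a calcium-dependent kinase of neurons, was lower by -0.44 (limma adjusted p = 0.044) in its brightest probe set and higher by 0.68 (adjusted p = 0.012) in another, and the first call was lost when any 1 of 14 arrays was left out (adjusted p up to 0.11). Of 30 genes of the respiratory chain, 25 of glutamate signalling, 15 neuropeptides, 3 of the sodium pump and 8 known strain variants, none was called. Their medians were -0.01, -0.02, 0.06, -0.06 and 0.04, and unadjusted p-values under 0.05 were found in 2, 1, 1, 1 and 1 genes. The strain variant Glo1, glyoxalase, had 0.49 (adjusted p = 0.072).

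Transmitter genes gave single calls, 5.26% of the GABA list and 4.17% of the monoamine list, against 2% of all genes. Slc6a11, the GABA transporter of astrocytes, was lower by -0.51 (limma adjusted p = 0.045) among 19 GABA genes, and its call was lost when any 1 of 13 arrays was left out (adjusted p up to 0.12). Htr3a, an ion-channel receptor for serotonin, was lower by -0.40 (adjusted p = 0.014) among 24 monoamine genes. Htr3a ran from 4.28 over 4.50 to 4.99 in 129 KO and from 4.58 over 5.05 to 5.26 in C57 KO, with overlap.

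In the clock list 2 of 16 genes were called (12.5%, against 2% of all genes). Per1, a repressor of the clock that glucocorticoids also induce, ran from 5.76 over 6.33 to 6.64 in 129 KO and from 6.25 over 6.77 to 6.95 in C57 KO, a difference of -0.46 (limma adjusted p = 0.012). Npas2, a partner of the clock activator, was lower by -0.35 (adjusted p = 0.0073). Per1 was also the called gene among 14 glucocorticoid targets (7.14%), whose median was -0.13. Among 26 activity-induced early genes none was called, and the median was -0.09. Fos had -0.61 (adjusted p = 0.19), Nr4a1 -0.37 (adjusted p = 0.20) and Egr1 0.05. Unadjusted p-values under 0.05 were found in 7 of these 26 (26.9%), against 10.4% of all genes.

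Lipid and metabolic lists held genes with large differences and medians near 0. Of 27 genes of phospholipid turnover 11.1% were called, against 2% of all genes. Gdpd3 was higher and Mboat2 and Lpin1 were lower, with a list median of -0.0007. Mboat2, which puts acyl chains on lysophospholipids, ran from 5.87 over 6.17 to 6.43 in 129 KO and from 6.28 over 7.59 to 8.27 in C57 KO. Array C57 KO 17 lay within the range of 129 KO and the others above it. The difference was -1.38 ± 0.18 (SE, limma adjusted p = 8.0e-06), against -1.52 in WT. The other Mboat2 probe set differed by -0.12 in KO and -0.14 in WT and was called in neither. Lpin1, a phosphatidate phosphatase, was lower by -0.24 ± 0.06 (SE, adjusted p = 0.016), and its other probe set differed by -0.06 and was not called.

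Galc was the called gene among 18 of the lysosome (5.56%, against 2% of all genes), whose median was -0.05. Nmnat1, the nuclear enzyme of NAD synthesis, was called among 15 NAD genes (6.67%). It ran from 3.57 over 4.06 to 4.55 in 129 KO and from 3.65 over 5.57 to 6.27 in C57 KO. Its difference was -1.47 ± 0.37 (SE; limma adjusted p = 0.023), and the call was lost without C57 KO 10 or C57 KO 17 (adjusted p up to 0.052).

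Immune lists gave 3 calls. Of 22 interferon-induced genes 2 were called (9.09%, against 2% of all genes). Xaf1 was higher and Trim30a, a regulator of inflammatory signalling, was lower by -0.49 (limma adjusted p = 0.0089), with a list median of -0.11. Of 14 genes of antigen presentation 1 was called (7.14%), the class I molecule H2-K1, which was lower by -0.34 (adjusted p = 0.040), a call lost when any 1 of 13 arrays was left out (adjusted p up to 0.090). Whether the H2 alleles of these mice differ was not tested, and probe sets of this family can share targets, so this value is uncertain.

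Markers of cell types were read in the same way, and in bulk tissue fewer cells of a type and less RNA per cell cannot be told apart. All 14 astrocyte markers had differences below 0, with a median of -0.13. Of them 1 was called (7.14%, against 2% of all genes). In limma 7 had an unadjusted p under 0.05 (50%, against 10.4% of all genes). S100b was called at -0.25 ± 0.06 (SE, limma adjusted p = 0.0070), Gfap had -0.22 (adjusted p = 0.35) and Aqp4 -0.13 (adjusted p = 0.70). The called S100b probe set differed by -0.02 in WT (adjusted p = 0.96). The other S100b probe set differed by -0.11 in KO (adjusted p = 0.62) and was not called. Of 15 microglial markers none was called and the median was -0.19. An unadjusted p under 0.05 was found for 9 of them (60%), against 1883 of 18193 genes (10.4%). The complement gene C1qb had -0.31 (adjusted p = 0.081) and the receptor P2ry12 had 0.17 (adjusted p = 0.85). Of 13 oligodendrocyte markers none was called by its brightest probe set, with a median of -0.11 and Mobp at -0.47 (adjusted p = 0.068). Dimmer probe sets of the myelin gene Mbp were called in both directions, at -0.50 (limma adjusted p = 0.0074) and 0.71 (adjusted p = 0.0019). Of 13 vessel markers none was called, with a median of -0.11.

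Markers of neighbouring regions, which a dissection can also hold, gave no calls. No cortical (10 measured), hippocampal (9), striatal (12), thalamic and hypothalamic (11), choroid plexus (10), pituitary (6) or blood (3) marker was called, nor any of 4 sex-linked genes. Their medians were 0.08, -0.06, 0.12, 0.07, 0.00, 0.04, 0.14 and 0.11. Unadjusted p-values under 0.05 were found in 1, 1, 3, 1, 0, 0, 0 and 0 of them by the same limma test. The striatal genes Gpr6 and Drd2 had 0.58 (adjusted p = 0.11) and 0.43 (adjusted p = 0.30). The choroid plexus gene Ttr had 0.90 ± 0.85 (SE; adjusted p = 0.84). The level of a list in each array, averaged over its genes, ran for striatum from 8.05 to 8.71 in 129 KO and from 7.91 to 8.83 in C57 KO. For microglia it ran from 6.06 to 6.53 and from 6.18 to 6.38. For astrocytes it ran from 8.64 to 8.78 and from 8.79 to 8.92, with no overlap, whereas the other averages overlapped. The part of these markers in the strain differences of other genes was not tested.

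**Figure D5:**
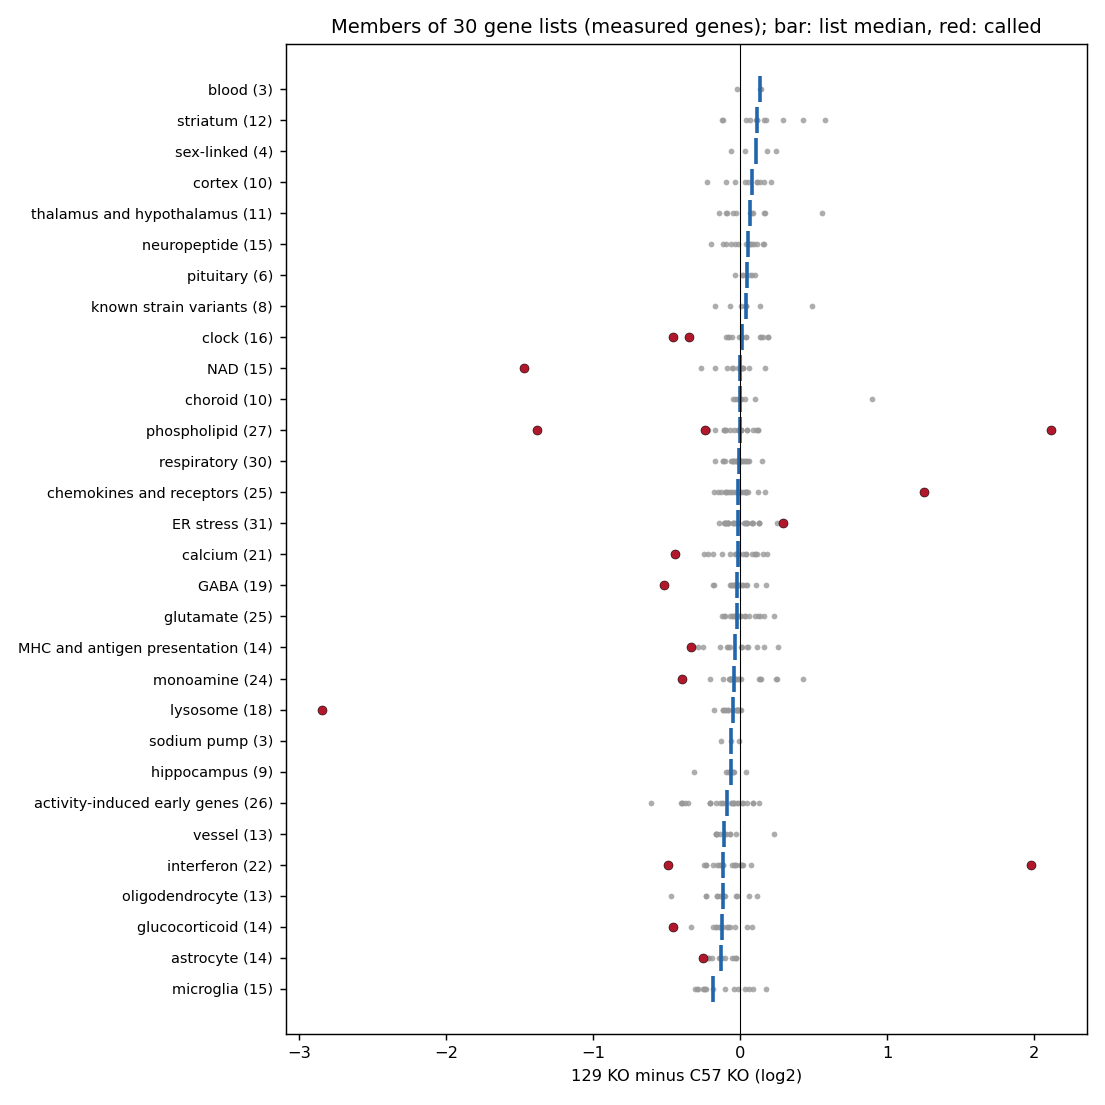
Strain difference between the KO groups (log2) for each measured gene of 30 lists, with the number of genes in brackets; grey points are uncalled genes, red points are called genes and blue bars are list medians. List medians lie between -0.19 and 0.14, while Galc (-2.84) and Gdpd3 (2.12) lie far from theirs.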

How the data were processed

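Total RNA of temporal lobe was labelled with biotin, from 1.2 ug per array, and hybridised to 37 Affymetrix arrays, per the labels. The values used are the authors' deposited log2 values, 1 per probe set and array, already normalized between arrays. MAS5 and GCRMA are named in the submitters' processing notes, with their versions and roles not given in the sources used here. No scaling, pseudocount or filter was added.

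The table held 45101 probe sets and no missing value, and 64 Affymetrix controls were left out. Of the 45037 others 34945 had 1 gene symbol, 932 several and 9160 none. By Entrez ID, 34741 of the 34945 matched the mouse RefSeq gene table (GRCm38.p6), which gave current symbols and gene order. No coordinates were used, because no label names a genome build for the arrays.

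limma 3.58.1 (R 4.3.3) was fitted with 1 mean per group to all 37 arrays, and the strains were contrasted within KO, within WT, and between these strain differences. The spread of a probe set was taken as equal in all groups. The method was tested first on simulated data with the same equal spread. Tables and plots used Python 3.11.15, pandas 2.3.3, NumPy 2.4.6, SciPy 1.17.1 and matplotlib 3.10.9.

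Named genes were the 12 largest rises and falls among called probe sets with 1 symbol and a mean in the higher group of at least the 40th percentile of probe set means (3.60), with clone names and predicted genes skipped and a gene counted by its brightest called probe set. Up to 10 genes per direction were taken for the difference of strain differences, and up to 3 called members per list. Wfs1, Cisd2, Ccr6, Abhd1, Drc1, Hspa5, Ypel1, Lgi2, Sod3 and Cfap69 were named whatever their result. The comparison, members and lists were chosen with earlier results of these data known.

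Alternatives were filters at the 40th and 60th percentiles, 1 probe set per gene, the mean of probe sets, quantile normalization, median centring, limma with a mean-variance trend and robust moderation, weights per array, a fit of the compared groups alone, array set as a block or alone, actin as a covariate, and each array left out.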

Additional observations from a re-analysis of the deposited data

Results flagged for a closer look

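A test for a single far array was run in 106 groups of named genes, where chance alone marks about 1 in 20, and 14 groups had one. In 129 KO, array 59 was highest for Gdpd3 (8.21, next 7.80), Ccr6 (6.03, next 5.62) and Abhd1 (6.49, next 6.04) and lowest for Cisd2 (5.39, next 5.81). Without it the strain difference of Ccr6 was 1.20, of Gdpd3 2.06 and of Cisd2 -0.25. Array 129 KO 52 was highest for Dzip1 (2.46, next 2.20) and lowest for Npas2 (5.35, next 5.79). In C57 KO, array 2 was lowest for Galc (2.60, next 5.62) and Nmnat1 (3.65, next 4.95) and highest for H2-K1 (7.74, next 7.15). Array C57 KO 8 was lowest for Phgdh (7.75, next 8.43) and Gdpd1 (5.77, next 7.03). Array C57 KO 9 was lowest for Ankrd33b (2.83, next 5.26) and C57 KO 17 for Mboat2 (6.28, next 7.34). In C57 WT, array 34 was highest for Abhd1 (5.37, next 4.71).

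The strain difference in KO differed from that in WT, by the interaction term in limma, for 6 probe sets with a gene symbol. They were 2 of Jakmip1 (1.90 and 0.80), and 1 each of Abhd1 (-1.37), Supt7l (-0.88), Ppp1cb (-0.81) and Drc1 (-0.59). Each of these values is the KO strain difference minus the WT strain difference.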

How the results depend on the processing

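The direction of the KO comparison (949 called, with more lower than higher in 129 KO) held under all 13 alternatives and with each of 19 arrays left out (742 to 1076 called). With the brightest probe set per gene, fitted and adjusted over the 13078 genes past the 40th percentile filter, 400 genes were called between the KO strains (364 of 18193 by the adjustment over all probe sets). With the mean of probe sets 399 were called, within array set 1 alone 577 and within set 2 alone 108. The WT count of 691 became 269 and 272 by the same gene choices, 1363 with array weights, 177 in set 1 alone and 307 in set 2 alone, and 545 to 749 with an array left out. In set 1 alone 23.7% of WT calls were higher in 129, against 39.8%. The 11 probe sets for the difference of strain differences became 6 with the 60th percentile filter, 2 with 1 probe set per gene, 3 with the mean of probe sets, 7 in set 1 alone and 1 in set 2 alone, and 9 to 16 with an array left out. Within 400 genes of Wfs1, 1 probe set per gene gave 1 KO call and 21 WT calls, and the mean of probe sets gave 19 WT calls, against 2 and 46. Apart from the array weights, fewer features or arrays enter these fits. A fit of only the groups compared was not run for the difference of strain differences, which needs all 4 groups. The count of called list genes (16) lay between 15 and 18.

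Taking the brightest probe set turned the sign for Nfia (-0.083), Fgfr1op2 (-0.038), Scn2b (0.057), Dzip1 (0.013), Rps9 (0.080), Supt7l (0.10) and Ppp1cb (0.47), the last 2 for the difference of strain differences. The mean of probe sets turned Camk4 to 0.077. These alternatives read other probe sets of the same genes. The 51 gene values followed include some that were not called with all arrays. They are Wfs1, Cisd2, Abhd1, Drc1, Hspa5, Ypel1, Lgi2, Sod3 and Cfap69 in KO, and Ccr6 for the difference of strain differences. Of the remaining values, which were called, 27 calls were lost in set 1 alone and 29 in set 2 alone. Ccr6 and Mir1931 in KO kept their calls under every alternative run. Chac1 was lost with median centring (adjusted p = 0.060). Cap1, Tmem87a, Mtmr7, Rps9, Rpgrip1, Chac1 and H2-K1 were lost when only the KO groups were fitted (adjusted p from 0.053 to 0.18), and Phgdh, Rps9 and Camk4 with array weights. The cause was not tested. No paired analysis was possible because the groups share no sample numbers. The limits are the number of arrays, the unlabelled array sets, the unstated roles of MAS5 and GCRMA, and probe sets of a gene that disagree.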

Other observations

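Further genes stood apart between the KO strains that no rule had named, and they were picked after their values were seen, so they are a description. Each was called in KO, with a limma adjusted p of 0.032 or below. Each value is that of 1 probe set, as for Msi2 with 8 probe sets on the array. Apart from Tut4, the other probe sets of these genes are not given here. Mpeg1, a pore-forming protein of macrophages and microglia, ran from 4.19 over 4.75 to 5.09 in 129 KO and from 5.23 over 5.98 to 6.31 in C57 KO. The groups did not overlap, and the difference was -1.19 in KO and -1.11 in WT. Msi2, an RNA-binding protein of stem cells, ran from 3.12 over 3.62 to 4.08 in 129 KO and from 4.19 over 5.75 to 6.06 in C57 KO, a difference of -1.91 in KO and -1.70 in WT, with a 129 KO mean (3.55) under the 40th percentile of 3.60. Tut4, an enzyme that adds uridine to RNA ends, ran from 3.39 over 3.86 to 4.24 and from 5.13 over 5.37 to 6.16, a difference of -1.66 in KO and -0.99 in WT. Another Tut4 probe set was called at 0.35 in KO. Cttnbp2, a protein of the neuronal cytoskeleton, ran from 4.57 over 5.18 to 5.50 and from 5.91 over 6.13 to 7.08, a difference of -1.16 in KO and -1.09 in WT.

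In a further 4 probe sets the KO groups overlapped. Sox11, a transcription factor of young neurons, differed by -1.88 in KO and -1.97 in WT in 1 of its 6 probe sets. Dcx, a microtubule protein of migrating neurons, differed by -1.30 in KO and -1.16 in WT. The motor protein gene Kif5b differed by -1.33 in KO and -1.81 in WT. Mapk8, the stress-activated kinase JNK1, was among the higher ones, at 1.63 in KO and 1.21 in WT.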
